A study of Homo sapiens with 2 samples.

Results

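Heat shock proteins are molecular chaperones: they bind unfolded or partly folded proteins and help them fold, cross membranes or be broken down. HSP70 proteins do this in a cycle of ATP binding and hydrolysis, which DNAJ proteins (also called HSP40 or J-domain proteins) start by delivering the substrate, and which nucleotide exchange factors end. HSP90 finishes the folding of kinases and receptors, HSP60 and HSP10 form the folding chamber of mitochondria, and small heat shock proteins hold unfolding proteins without using ATP. Heat shock factors such as HSF1 raise the transcription of the inducible members under protein-damaging stress, through repeats of GAA in alternating orientation in their promoters.

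The genes described here are the heat shock proteins and DNAJ co-chaperones, chosen by name only. A gene was included where a probe set carried a single gene symbol that starts with HSPA, HSPB, HSPD, HSPE, HSPH, HSP90, DNAJA, DNAJB or DNAJC, without HSPB11. This gave 74 of 19775 genes with a single-symbol probe set, read by 173 probe sets. The rule also takes in HSPBP1 and HSPBAP1, which are partners of HSP70 and of HSPB1 and not small heat shock proteins, and 5 noncoding genes named after a DNAJ or HSPA neighbour. HSPA1A, HSPA1B and HSPA8, the main inducible and constitutive HSP70 genes of the cytosol, had no probe set of their own symbol alone and were not analysed as genes here. Their probe sets, which carry several symbols, enter only the pooled range of several-symbol probe sets given below.

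The cells were hTERT-RPE1, a human cell line from the retinal pigment epithelium that was made immortal by telomerase, grown with 10% fetal bovine serum and hygromycin B. They were transfected by a lipid reagent with a miR-129-3p oligo (1 array) or a control oligo (1 array), and RNA was taken after 72 h. Both groups are the same line and differ in the oligo; its sequence and dose are not given in the labels. Each group held 1 array, so no value has a replicate error, no difference was tested, and every difference compares these 2 arrays. Signals are the deposited intensities of 3' expression arrays on a linear scale, and a difference is log2(signal + 16) of the miR-129-3p array minus that of the control array, which understates differences of dim genes. In such bulk RNA, fewer cells that express a gene and less RNA per cell cannot be told apart.

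RefSeq lists the following human mature miRNAs of the miR-129-3p name, shown because they are what the transfected oligo is named after; capitals mark the seed, bases 2 to 8, with which a miRNA pairs to its targets. The first lies at chr7:128207920-128207941 and the second at chr11:43581450-43581471, both on the plus strand of GRCh38.p14. They share the seed and differ near the 3′ end, and the labels do not say which was used.
hsa-miR-129-1-3p: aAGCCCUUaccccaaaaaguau
hsa-miR-129-2-3p: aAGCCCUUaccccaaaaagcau

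The median signal over 54613 probe sets was 98.0 on the miR-129-3p array and 96.5 on the control array. Of 10 markers of retinal pigment epithelium, 4 reached a signal of 100 on either array (MITF, OTX2, PMEL and TTR), while RPE65, RLBP1, BEST1, TYR, TYRP1 and LRAT, markers of the mature tissue, did not. Of those detected, MITF, a pigment cell transcription factor, was lower with miR-129-3p (1020, against 2470 in control, -1.26) and PMEL, a pigment granule protein, higher (229, against 114 in control, 0.92). All 5 measured markers of cultured epithelial and mesenchymal cells were below 0, from -0.96 for KRT18 to -0.17 for CDH1, and EPCAM was under 100 on both arrays. Of 4 blood cell markers with a probe set, HBB alone reached 100, at 149 with miR-129-3p and 162 in control. The arrays differed broadly in other programmes. All 5 interferon-response markers with a probe set were higher with miR-129-3p, by 4.76 to 7.47 on the log2 scale, with summed signals of 55380 against 840 in control. All 6 mitosis markers were lower, by -3.27 to -1.68, with summed signals of 1786 against 7696 in control. The part of any of these in the chaperone differences was not tested.

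Heat shock protein and DNAJ genes mostly differed little between the arrays. A gene counts as measured where its brightest probe set read 100 or more on at least 1 array, which 60 of the 74 did. The 14 others were the 5 noncoding genes and HSPA12B, HSPB3, HSPB6, HSPB9, DNAJB7, DNAJB8, DNAJB13, DNAJC5G and DNAJC12. Of the 60, 49 differed by less than 1.5-fold. With miR-129-3p 7 were at least 1.5-fold higher (11.7%, where 17.3% of all 12754 measured genes were) and 4 at least 1.5-fold lower (6.67%, against 10.8% of all genes). At 2-fold, 2 were higher (3.33%, against 7.83% of all genes) and 3 lower (5.0%, against 4.56%). The median log2 difference of the 60 was 0.17, and that of all measured genes 0.03. Over all measured genes 71.9% were within 1.5-fold, 52.9% above 0 and 47.1% below 0; among the members 81.7% were within 1.5-fold and 61.7% above 0. The median size of the difference, without its sign, was 0.31 for the members and 0.32 for all measured genes. The shares of members past the limits were thus at or under those of genes in general, apart from the 2-fold lower share, which rested on 3 genes.

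**Figure D1:**
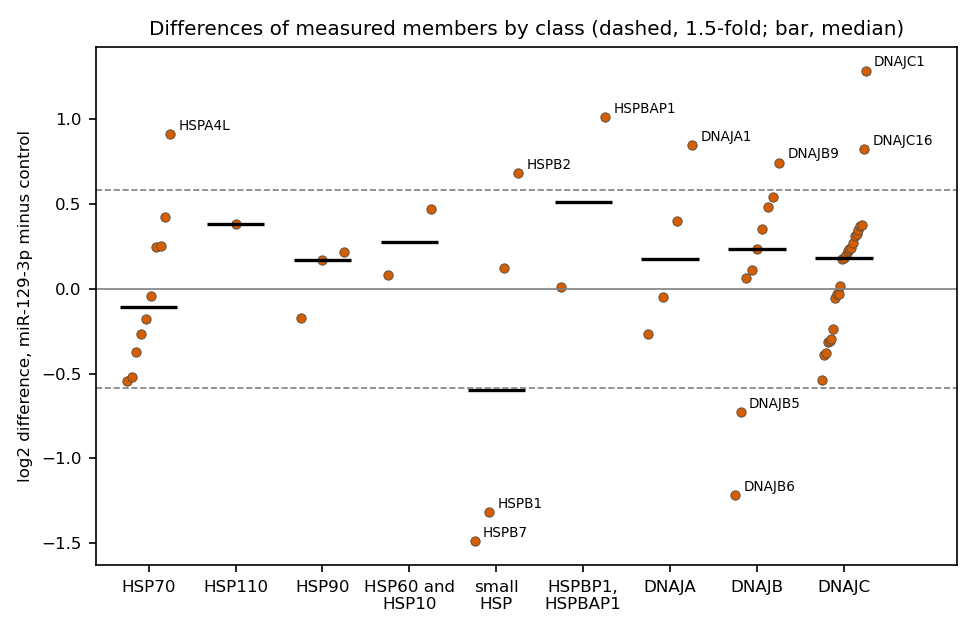
Log2 difference (y axis, miR-129-3p minus control) of each measured member, grouped by class (x axis); points are genes, bars class medians, dashed lines 1.5-fold. HSPB7, HSPB1, DNAJB6 and DNAJB5 lie below the lower line and 7 genes, led by DNAJC1 at 1.29, lie above the upper one.

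Among the HSP70 genes, 1 of 10 measured members was at least 1.5-fold higher (10.0%, against 17.3% of all measured genes). In the same class 0 were lower (against 10.8% of all measured genes), and the class median was -0.11. HSPA4L, a cytosolic member of the HSP110 branch that works as a nucleotide exchange factor, had a signal of 359 with miR-129-3p and 183 in control, a log2 difference of 0.91. Its other measured probe set differed by 0.80, so both read it higher. The close relative HSPA4 read 1922 with miR-129-3p and 2173 in control (-0.18), and all of its other probe sets were also below 0, at -0.52 to -0.27. HSPH1, the HSP110 gene itself, went the other way from HSPA4, at 2349 with miR-129-3p and 1800 in control (0.38), with other probe sets at 0.11 and 0.47.

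HSPA5 (BiP), the HSP70 of the endoplasmic reticulum (ER), read 8969 with miR-129-3p and 7521 in control, a difference of 0.25, but its dimmer probe set stood at -0.43. HSPA9 (mortalin), the HSP70 of mitochondria, read 2747 with miR-129-3p and 2316 in control (0.24). HSPA13, a truncated HSP70 of the ER, read 2362 and 2432 (-0.04). These organelle HSP70 genes were therefore all within 1.5-fold on every measured probe set.

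HSPA1L, known mainly from testis, read 207 with miR-129-3p and 150 in control (0.42). HSPA2, also best known from male germ cells, read 401 and 486 (-0.27), and HSPA14, which acts at the ribosome, read 546 and 711 (-0.37). HSPA12A, a distant relative, read 137 with miR-129-3p and 204 in control (-0.52). HSPA6, a human HSP70 gene that is nearly silent without stress, read 82.6 with miR-129-3p and 128 in control (-0.55), and 67.6 and 76.3 on its other probe set. HSPA6 stayed near the filter on both arrays.

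HSP90 genes were bright and nearly level between the arrays. HSP90AA1, the inducible cytosolic form, read 11958 with miR-129-3p and 10634 in control (0.17), with its other probe sets between 0.00 and 0.17. HSP90AB1, the constitutive form, read 8365 and 7186 (0.22), with others at -0.03 and 0.08. HSP90B1 (GRP94), the ER form, read 5537 with miR-129-3p and 6242 in control (-0.17), with its other probe set at -0.14. The largest of these amounts is below the spread seen among a gene's own probe sets, a pooled SD of 0.37 over 6179 genes and of 0.24 over the 40 members with several measured probe sets. That spread is within the arrays and does not include the spread between cultures.

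HSPD1 (HSP60) and HSPE1 (HSP10) encode the mitochondrial folding chamber and its lid. HSPD1 read 7569 with miR-129-3p and 7141 in control (0.08), and HSPE1 read 4382 and 3158 (0.47), on its only probe set. Their promoter windows in RefSeq overlap by 204 bases on opposite strands of chromosome 2, so they are transcribed away from a shared region. On these probe sets the differences of this divergent pair had the same sign and neither passed 1.5-fold. The other measured probe sets of HSPD1 ran from -0.04 to 0.37, on both sides of 0.

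The small heat shock proteins held the lowest differences of all members. HSPB1 (HSP27), which also binds and steadies actin filaments, read 1615 with miR-129-3p and 4048 in control, a log2 difference of -1.32 (2.49-fold lower). Of all measured genes 2.55% had a lower difference than HSPB1. It rests on 1 probe set. HSPB7, known from heart muscle, read 54.1 with miR-129-3p and 181 in control (-1.49), so the miR-129-3p signal was under the filter; its other probe set was under 100 on both arrays, at 56.8 and 53.5. With every signal under 100 set to 100, the HSPB7 difference was -0.86. HSPB2, another muscle-rich member, was higher, at 239 with miR-129-3p and 143 in control (0.68, on its only probe set). On chromosome 11 of GRCh38.p14 HSPB2 lies inside the annotated span of CRYAB, the small heat shock protein alpha-B crystallin, which read 604 with miR-129-3p and 717 in control (-0.24). HSPB8 (HSP22), which works with BAG3 in clearing misfolded proteins, read 507 and 464 (0.13), with its other probe set at 0.10. The class of 4 measured genes was therefore split, and its median of -0.60 is the midpoint of unlike values.

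HSPBAP1, whose product was found as a binding partner of HSPB1, read 309 with miR-129-3p and 145 in control (1.01) on its only probe set. HSPBP1, an HSP70 nucleotide exchange factor, read 386 and 383 (0.01). The partner was thus higher on the array on which HSPB1 was lower.

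**Figure D2:**
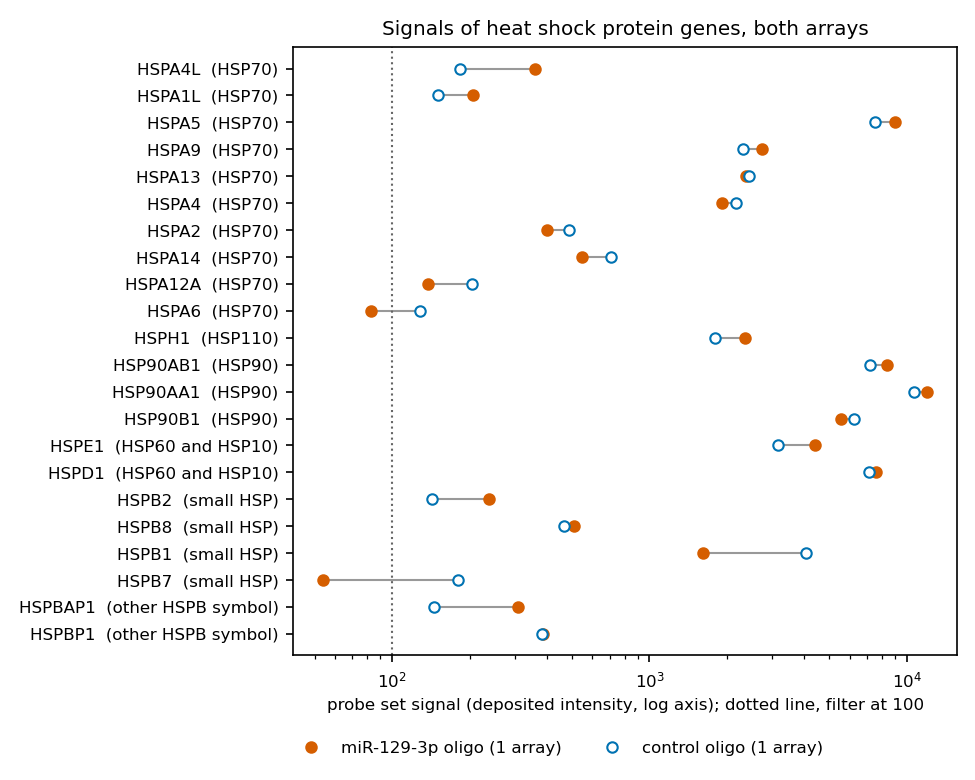
Signal (x axis, deposited intensity, log scale) of the 22 measured members with an HSP symbol, by class (y axis); filled points are the miR-129-3p array, open points the control array. HSPB1 and HSPB7 lie left of their control points by the widest gaps, and the HSP90 points nearly touch; signals of different genes come from different probes and are not to be ranked.

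DNAJ genes were measured for 38 of 43 coding members, with a median of 0.19. Of the 38, 4 were at least 1.5-fold higher (10.5%, against 17.3% of all measured genes) and 2 lower (5.26%, against 10.8%). The DNAJA and DNAJB classes are the close relatives of bacterial DnaJ, which hand unfolded proteins to HSP70, while DNAJC members share with them the J domain alone. By class, 1 of 4 DNAJA (25.0%), 1 of 9 DNAJB (11.1%) and 2 of 25 DNAJC genes (8.0%) were at least 1.5-fold higher. Each share is to be read against the same 17.3%. Both of the lower genes were DNAJB members (22.2% of 9, against 10.8% of all measured genes), a share that rests on 2 genes.

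DNAJA1, a major cytosolic partner of HSP70, read 7670 with miR-129-3p and 4249 in control (0.85). Its other probe set read 4395 with miR-129-3p and 2626 in control (0.74), which is also past 1.5-fold. The other cytosolic DNAJA genes were closer to level: DNAJA2 stood at -0.27 but at 0.33 on its other probe set, and DNAJA4 at -0.05. DNAJB1, the classic heat-inducible HSP40, read 1410 and 964 (0.54), just inside the 1.5-fold limit of 0.58, with its other probe set at 0.30. DNAJB4, a related inducible gene, read 1185 with miR-129-3p and 1135 in control (0.06).

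DNAJB6, a J protein that keeps polyglutamine proteins from aggregating, read 490 with miR-129-3p and 1158 in control (-1.21, 2.32-fold lower). It has 1 probe set of its own symbol; probe sets whose annotation joins several symbols were not used. The 14 such probe sets that carry any symbol of the naming rule, those with the DNAJB6 symbol included, ran from -0.55 to 0.56. None of them passed 1.5-fold, so those with the DNAJB6 symbol did not repeat a difference of the size of -1.21. That difference rests on 1 probe set. DNAJB5 read 113 with miR-129-3p and 198 in control (-0.73), close to the filter, and its other probe set, under the filter, read 23.6 and 48.1 (-0.69). DNAJB2, a J protein rich in neurons, read 640 and 592 (0.11).

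**Figure D3:**
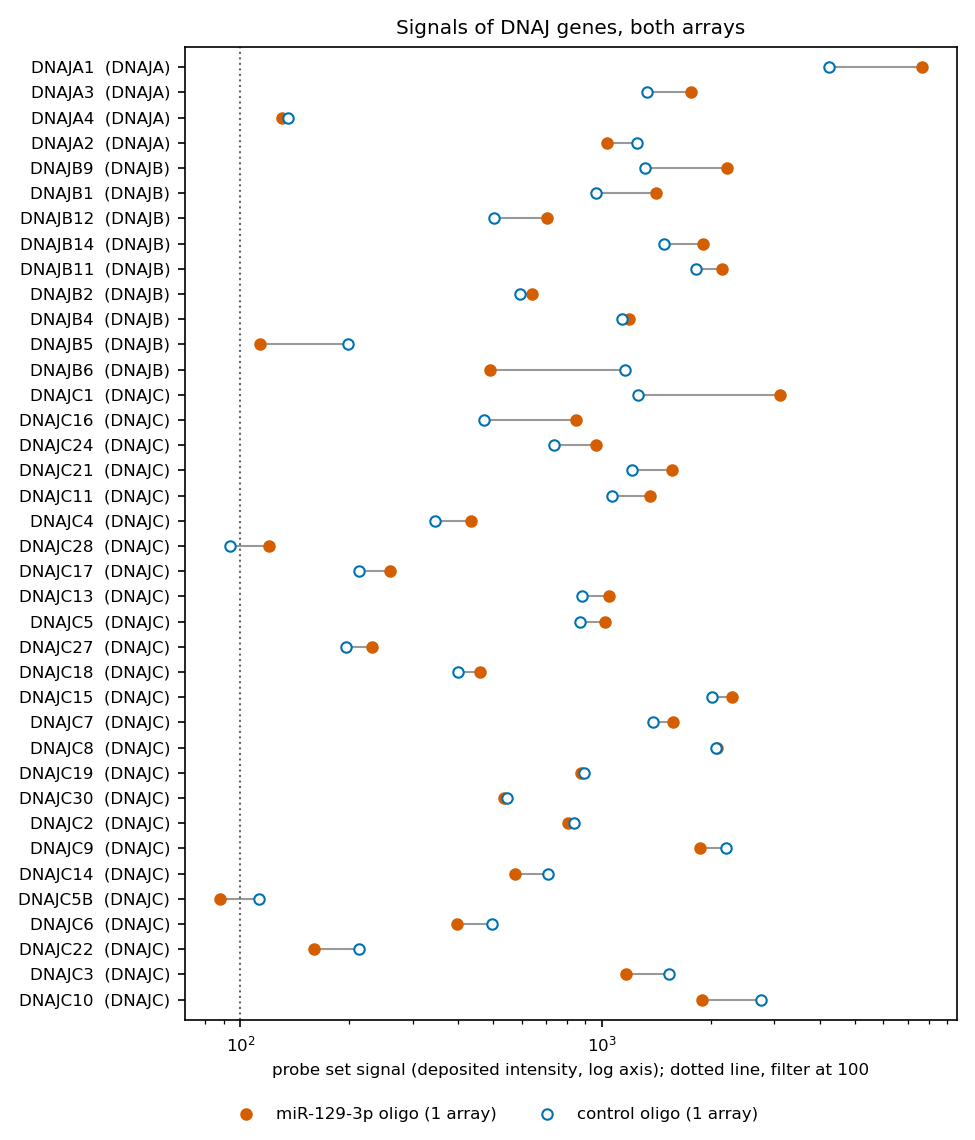
Signal (x axis, deposited intensity, log scale) of the 38 measured DNAJ genes, by class (y axis); filled points are the miR-129-3p array, open points the control array, and the dotted line is the filter at 100. DNAJC1 and DNAJB6 show the widest gaps, in opposite directions.

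Of the 12 measured ER members, 3 were at least 1.5-fold higher (25.0%, against 17.3% of all measured genes), all of them DNAJ genes. Among the 12, 0 were lower (against 10.8% of all measured genes). DNAJC1 (ERdj1), an ER membrane protein that binds ribosomes and recruits BiP, read 3102 with miR-129-3p and 1261 in control, a log2 difference of 1.29 (2.44-fold). Its other probe sets stood at 1.40 and 1.42, so all 3 were over 2-fold higher. DNAJC16 (ERdj8) read 847 and 472 (0.82), with another probe set at 0.87 and a dim one at -0.10. DNAJB9 (ERdj4), which guides misfolded proteins to degradation and holds the stress sensor IRE1 inactive with BiP, read 2218 with miR-129-3p and 1317 in control (0.74), and its other probe sets stood at 0.55 and 0.56, below the limit of 0.58.

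Other BiP partners were within 1.5-fold on their brightest probe set. DNAJB11 (ERdj3), a soluble partner, read 2154 with miR-129-3p and 1825 in control (0.24). DNAJC3 (p58IPK), a lumenal partner that also restrains the kinase PERK, read 1164 and 1528 (-0.39), with its other probe sets at -0.36 to -0.23. DNAJC10 (ERdj5), a disulfide reductase, read 1893 with miR-129-3p and 2759 in control (-0.54), and its other measured probe sets ran from -1.29 to 0.15 and so disagreed. The median over the ER members was 0.25.

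The mitochondrial members stayed within 1.5-fold, 10 of 10, where 71.9% of all measured genes did. Of the 10, 8 were above 0 (80.0%, against 52.9% of all genes), and the median was 0.28. It was 0.11 with the mean of all probe sets and -0.01 without probe sets ending in _x_at or _s_at. Of the members above 0, DNAJC11, DNAJC4 and HSPD1 also had a measured probe set below 0, the lowest at -0.39, -0.26 and -0.04. DNAJC19, below 0, had another at 0.16. DNAJA3 (Tid1), the main J partner of mortalin, read 1759 with miR-129-3p and 1328 in control (0.40), and 0.43 on its other probe set. DNAJC19, of the protein import motor, read 875 and 892 (-0.03). DNAJC15, its relative at the import channel, read 2293 with miR-129-3p and 2019 in control (0.18), but its dimmer probe sets stood at 0.51 and 1.12. The remaining 38 members of the cytosol, nucleus or no assigned place had a median of 0.04.

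Agreement between probe sets was checked wherever a gene had several. Of the 40 measured members with another measured probe set, 26 had all of them on the same side of 0. Of the 11 members past 1.5-fold, 5 had another measured probe set, and for 4 of these, DNAJC1, HSPA4L, DNAJA1 and DNAJB9, all lay on the same side; the exception was DNAJC16. The other 6, among them every lower gene, rest on 1 measured single-symbol probe set each.

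**Figure D4:**
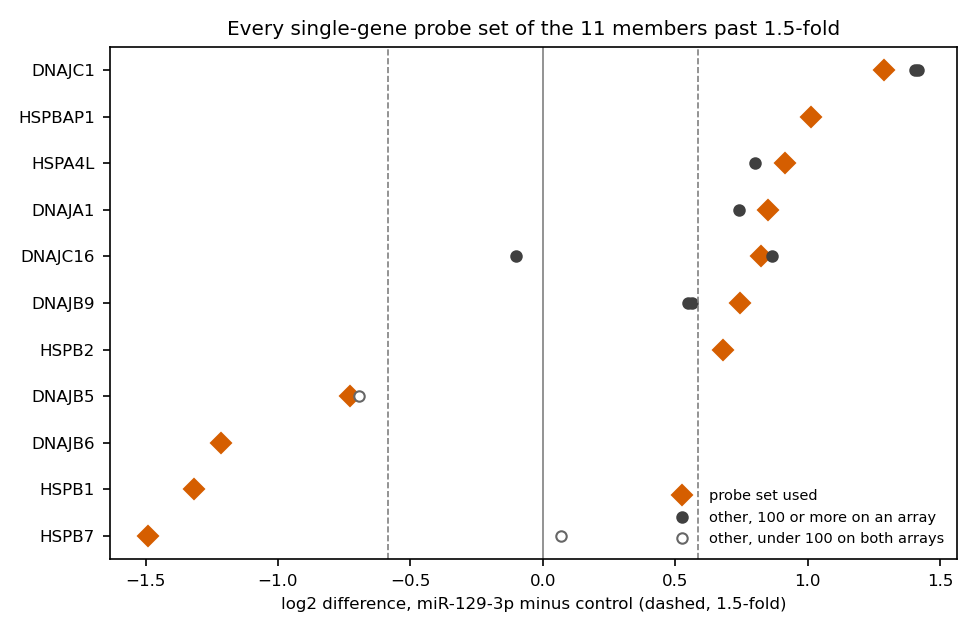
Log2 difference (x axis, miR-129-3p minus control) of each single-symbol probe set of the 11 members past 1.5-fold (y axis); diamonds are the probe sets used, filled circles others with signal, open circles others under 100 on both arrays. The DNAJC1 probe sets lie together at 1.29 to 1.42, and the lower genes have no second single-symbol probe set above the filter.

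A list of 15 genes taken as heat-inducible was also compared. It holds HSPA1A, HSPA1B and HSPA8, which had no single-symbol probe set, and HSPA1L, HSPA4L, HSPA6, HSPB1, HSPH1, HSPD1, HSPE1, HSP90AA1, HSP90AB1, DNAJA1, DNAJB1 and DNAJB4, which were all measured. Some of these, such as HSP90AB1, are made at high level without stress. HSPA8 is also constitutive and HSPA1L is known mainly from testis, so the list is not one of inducible genes only. HSPA4L and DNAJA1 were the 2 of 12 past 1.5-fold upward (16.7%, against 17.3% of all measured genes), and HSPB1 was the 1 past it downward (8.33%, against 10.8%). Both shares are near those of all genes. The median was 0.30, and 10 of the 12 were above 0 (83.3%, against 52.9% of all genes). This median was 0.20 with the mean of all probe sets and 0.14 without probe sets ending in _x_at or _s_at. Of the 10, DNAJB4, HSPD1, HSP90AB1 and HSP90AA1 also had a measured probe set below 0, the lowest at -0.12, -0.04, -0.03 and -0.0006. HSF1, the heat shock factor, read 647 with miR-129-3p and 480 in control (0.42) on its only measured probe set. HSF2 had no single-symbol probe set and was not analysed here.

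Promoter sequence was read from RefSeq windows of 250 bases before to 50 after a gene start (GRCh38.p14), found for 67 of the 74 members. A long heat shock element was searched as GAANNTTC followed by 2 bases and GAA, or TTCNNGAA followed by 2 bases and TTC (these are the same site read from either strand). The short element, GAANNTTC or TTCNNGAA, is contained in the long one. The long element was found for 6 of the 67 members (8.96%), against 0.61% of 27305 genes with a window (0.49% of 35116 windows). The short element was found for 19 of 67 (28.4%), against 16.2% of all genes. Genes differ in their number of windows, so shares over windows are also given: 6.74% of 89 member windows held the long element.

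The windows with the long element are shown because these genes carry the same kind of site while their differences ran both ways; capitals mark the element, with 14 bases on each side where the window allows.
DNAJA1, plus strand, chr9:33025262-33025302: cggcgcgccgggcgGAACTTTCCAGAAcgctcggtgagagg
HSP90AB1, plus strand, chr6:44247764-44247804: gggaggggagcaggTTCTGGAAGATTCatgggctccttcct
HSP90AA1, minus strand, chr14:102087106-102087146: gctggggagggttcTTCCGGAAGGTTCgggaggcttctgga
HSPD1, minus strand, chr2:197500059-197500090: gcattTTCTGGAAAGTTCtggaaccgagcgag
HSPA6, plus strand, chr1:161524452-161524492: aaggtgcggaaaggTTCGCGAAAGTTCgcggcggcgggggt
DNAJB6, plus strand, chr7:157336859-157336899: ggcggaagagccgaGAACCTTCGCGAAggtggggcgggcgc

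These 6 genes spanned most of the range of the members. DNAJA1 stood at 0.85, HSP90AB1 at 0.22, HSP90AA1 at 0.17, HSPD1 at 0.08, HSPA6 at -0.55 and DNAJB6 at -1.21. The element begins 131 bases before the start of DNAJB6 and 3 bases after that of DNAJA1. The windows shown for HSPD1, HSP90AA1 and HSP90AB1, and that of HSPA4L below, lie inside the annotated span of the gene and not at its outer end. That of HSPD1 is not the window that overlaps the HSPE1 window. HSPB1 and HSPA4L held the short element only, and they too differed in opposite directions, at -1.32 and 0.91.
HSPB1, plus strand, chr7:76302477-76302512: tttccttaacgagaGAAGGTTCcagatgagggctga
HSPA4L, plus strand, chr4:127782138-127782173: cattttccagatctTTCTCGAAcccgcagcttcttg

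An ER stress element, CCAAT, 9 bases and CCACG on either strand, was found in 2 of the 67 members, against 0.09% of all genes with a window. Both were ER chaperones within 1.5-fold, HSPA5 at 0.25 and HSP90B1 at -0.17; the matches begin 66 and 194 bases before their starts.
HSPA5, minus strand, chr9:125241377-125241423: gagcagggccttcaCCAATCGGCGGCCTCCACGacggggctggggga
HSP90B1, plus strand, chr12:103930202-103930248: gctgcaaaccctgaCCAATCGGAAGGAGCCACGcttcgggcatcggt

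No window was given for DNAJC1, and those of DNAJB9 and DNAJC16 held none of these motifs. A match describes the letters of these windows and is not evidence of binding.

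Chaperone partners outside the naming rule were compared as 8 lists, in all 74 distinct measured genes with a median of -0.01. Of these, 7 were at least 1.5-fold higher (9.46%, against 17.3% of all measured genes) and 5 lower (6.76%, against 10.8%). The counts of single lists that follow are of 3 to 19 genes and are to be read against the same 17.3% and 10.8%. Nucleotide exchange and hand-over factors of HSP70 had 2 of 13 higher and 1 lower, with a median of -0.17. BAG1, an exchange factor of cytosolic HSP70, read 1287 with miR-129-3p and 673 in control (0.92), with its other probe sets at 1.06 and 1.79. SIL1, the exchange factor of BiP, read 1314 and 712 (0.87). BAG3, an exchange factor that pairs with HSPB8 and is itself heat-inducible, read 1879 with miR-129-3p and 3168 in control (-0.75). BAG1 and BAG3, which share the BAG domain, thus differed in opposite directions. Of the partners named here and below as past 1.5-fold, BAG3, SIL1, VBP1, HSF2BP and DDIT3 rest on 1 measured single-symbol probe set each.

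The 11 measured HSF1 targets outside the naming rule had 1 higher, 1 lower and a median of -0.17. P4HA2, a collagen prolyl hydroxylase subunit, read 7678 with miR-129-3p and 4084 in control (0.91), and 0.57 on its other probe set; BAG3 was the lower gene. Among 4 measured HSF genes and partners, HSF2BP, a partner of HSF2 with a known role in meiosis, read 134 with miR-129-3p and 510 in control (-1.81). HSP90 co-chaperones had 1 of 12 higher and 0 lower: FKBP5, an immunophilin of the glucocorticoid receptor complex, read 1857 and 1085 (0.77), with 0.82 on its other probe set.

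The cytosolic CCT chaperonin, which folds actin and tubulin, and its feeder prefoldin had 11 of 12 measured members below 0 (91.7%, against 47.1% of all measured genes) and a median of -0.11. Of the 12, 2 were at least 1.5-fold lower (16.7%, against 10.8%). VBP1, a prefoldin subunit, read 1499 with miR-129-3p and 2452 in control (-0.70). CCT6A, a CCT subunit, read 1466 and 2233 (-0.60), and -0.97 on its other probe set. On their brightest probe set, the 10 other members lay between -0.26 and 0.07. CCT5, at -0.01, had its other measured probe set at 0.17, above 0. Those of CCT2, CCT4, PFDN4 and PFDN5 were below 0.

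In the list of ER folding and the unfolded protein response, 2 of 19 genes passed 1.5-fold upward and 1 downward, with a median of 0.03. The higher ones were DDIT3 (CHOP), a stress transcription factor, at 1083 with miR-129-3p and 429 in control (1.30), and ERN1, the sensor IRE1, at 579 and 274 (1.04). The other measured probe sets of ERN1 ran from -0.24 to 1.66 and disagreed. SEL1L, of the ER degradation machinery, read 1023 with miR-129-3p and 1688 in control (-0.71), with others at -0.32 and -0.25. The folding enzymes and lectins CALR, CANX, PDIA3, PDIA4, PDIA6 and P4HB lay between -0.23 and 0.33 on their brightest probe set. Other measured probe sets of PDIA3 (-0.50 and -0.42), PDIA4 (-0.15) and CANX (-0.40 to -0.08) had the opposite sign. Those of CALR, PDIA6 and P4HB kept the sign. Of 10 measured mitochondrial chaperones and proteases, 1 was higher and 0 lower, with a median of 0.18. The higher gene was CLPX, the unfoldase of the ClpXP protease, at 1572 with miR-129-3p and 919 in control (0.76). Its other measured probe set stood at 0.44, below the limit of 0.58. The 3 measured J-domain genes without a DNAJ symbol, SEC63, GAK and HSCB, lay between 0.01 and 0.35 on their brightest probe set. The other measured probe sets of SEC63 stood at -0.33 to -0.05.

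**Figure D5:**
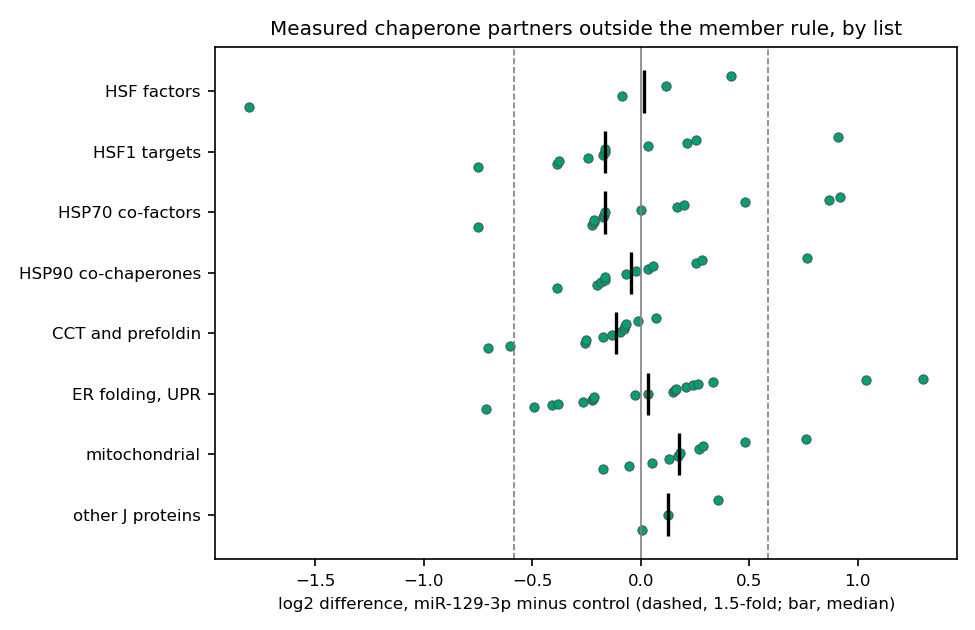
Log2 difference (x axis, miR-129-3p minus control) of the measured chaperone partners, by list (y axis); points are genes, bars list medians, dashed lines 1.5-fold, and a gene in several lists is drawn in each. Most genes lie within the dashed lines; HSF2BP at -1.81 and DDIT3 at 1.30 lie farthest out.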

How the data were processed

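Total RNA of 100 ng per group was labelled with biotin and hybridised to Affymetrix 3' arrays, per the labels. The authors' deposited intensity, 1 value per probe set and array, ran from 1 to 20822; MAS5 and RMA are both listed in the submitters' processing notes, and which of them made the values is not stated. Background correction, scaling and detection calls are not given in the sources used here, and floors or compression would affect dim genes most.

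Gene names came from the platform annotation, in which 41091 probe sets carry 1 symbol; those with several (1801) or without an entry (11721) were not used. For each gene the probe set of highest mean log2(value + 16) over both arrays was taken, and 100 on either array was required. All 74 members matched GRCh38.p14 by gene ID.

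No test was run and no p-value is given, with 1 array per group; n limits the precision of every value. All HSP genes above the filter, DNAJ genes past 1.5-fold, the J partners of organelle HSP70s and up to 3 partners per list end were to be named; DNAJ genes named beyond that, and the partners named within 1.5-fold, were chosen after their values were seen. Members, classes, motifs and lists were chosen with earlier results of these data known. Alternatives covered scaling, filter, probe set choice, added constant and fold limit. The code was tested on simulated data. Tables were made with pandas 2.3.3 and numpy 2.4.6 under Python 3.11.15, loess with statsmodels 0.14.6 and figures with matplotlib 3.10.9.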

Additional observations from a re-analysis of the deposited data

How the results depend on the processing

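Over 10 alternatives of scaling, filter, probe set and constant, 7 of the 11 members past 1.5-fold stayed past it wherever they had a value. DNAJB5 (-0.56) and HSPB2 (0.55) fell short with a constant of 64, DNAJB9 (0.55) without probe sets ending in _x_at or _s_at, and DNAJC16 (0.53) with the mean of all probe sets. The median of all measured members ran from 0.10 to 0.19. That of the mitochondrial members ran from -0.01 to 0.29 and that of the heat-inducible list from 0.14 to 0.33. The count of 7 higher members ran from 6 to 8 and became 0 at a 3-fold limit. The count of 4 lower members became 2 with a mean signal of 200 or more, 1 without _x_at and _s_at probe sets, and 0 at 3-fold. At 2-fold, the count of 2 higher became 1 with median centring, loess, quantile normalization or a constant of 64, and the 3 lower became 0 without _x_at and _s_at probe sets. The small heat shock protein median of -0.60 became -0.087 with no filter and 0.39, the opposite sign, without _x_at and _s_at probe sets, which removes HSPB1 and HSPB7. The HSP70 co-factor list moved from -0.17 to 0.34 under that same choice; the cause was not tested. No paired analysis was possible because each group held 1 array. Precision is limited by the 2 arrays, and for dim members such as HSPB7, HSPA6, DNAJB5, DNAJC5B, DNAJC28 and DNAJA4 also by signals near 100. DNAJC28 is 1 of the mitochondrial members above 0.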

Other observations

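A further 14 probe sets join a symbol that fits the naming rule with another symbol and so belong to no single gene. Those of HSPA1A, HSPA1B and HSPA8, which are not among the 74 members, are included. Of these, 13 reached a signal of 100, 7 were above 0 and 7 below 0, and their log2 differences ran from -0.55 to 0.56, with 0 past 1.5-fold. Dimmer probe sets of DNAJC15 (223 with miR-129-3p and 93.9 in control, 1.12) and DNAJC10 (143 with miR-129-3p and 374 in control, -1.29) were over 2-fold apart although the brightest probe set of each gene was within 1.5-fold; both were picked after their values were seen.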
